A study of Mus musculus with 4 samples.

Results

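Of the 6482 Dzip3 peaks called in mouse embryonic stem (mES) cells, 1382 overlapped a peak of each of the 3 other libraries of the experiment, Ring1B, ubH2A and input DNA. These shared peaks made up 21.3% of the Dzip3 list (95% Wilson interval 20.3 to 22.3, counting error only). All 4 lists as deposited held 30047 readable peaks. The ubH2A and input lists were incomplete on chromosomes 1, 10 and 11 and, for input, 12. The members were chosen by the listed overlaps: a Dzip3 peak was counted as shared when the listed percent of its length covered by Ring1B peaks, by ubH2A peaks and by input peaks was above 0 in all 3 cases. The rule therefore used reads of all 4 libraries, and the read levels and ratios below describe the chosen peaks without a test.

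The cells were E14, a line of mES cells of the 129/Ola strain, at passage 3 to 5. All 4 libraries came from cells kept in the pluripotent state with 2i + LIF, that is PD0325901 at 1 µM, CHIR99021 at 3 µM and leukemia inhibitory factor at 1000 U/ml, and the cells were fixed with 1% formaldehyde for 10 min. Chromatin was precipitated with antibodies against Dzip3, Ring1B or ubH2A, and the input library held the fragmented DNA without precipitation. There was 1 library of each kind from 1 line and no knockdown among these samples, so no difference between libraries has a replicate check.

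Dzip3 and Ring1B are both ubiquitin ligases of histone H2A, and ubH2A is the histone with ubiquitin on lysine 119, a mark of Polycomb repression at developmental genes in mES cells. Input DNA is sequenced to show how many fragments a region yields without an antibody, and a peak in it marks a region with many reads where nothing was precipitated. Satellites are tandem repeats of pericentromeric heterochromatin, and duplicated gene arrays hold near-identical copies side by side.

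Sequences of the highest peak of each of the 3 largest clusters are shown, because these clusters held 358 of the 1382 peaks. All sequences are from the plus strand of mm9, and capitals mark bases that lie in a word of 31 bases found more than once in that genome.
Gm15319 cluster chr8:19927094-19927293: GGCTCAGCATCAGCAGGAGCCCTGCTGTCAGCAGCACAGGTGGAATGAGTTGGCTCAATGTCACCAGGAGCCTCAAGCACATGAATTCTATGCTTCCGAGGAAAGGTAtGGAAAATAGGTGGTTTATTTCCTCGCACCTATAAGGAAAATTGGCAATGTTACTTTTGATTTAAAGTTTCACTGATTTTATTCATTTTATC
C130026I21Rik cluster chr1:85277017-85277216: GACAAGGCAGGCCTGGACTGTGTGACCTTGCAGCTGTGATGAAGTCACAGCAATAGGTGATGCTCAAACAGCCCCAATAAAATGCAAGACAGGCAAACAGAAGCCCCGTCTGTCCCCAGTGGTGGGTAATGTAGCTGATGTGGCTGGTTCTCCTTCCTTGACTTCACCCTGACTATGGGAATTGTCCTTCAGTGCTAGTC
Vmn2r121 cluster chrX:121307937-121308136: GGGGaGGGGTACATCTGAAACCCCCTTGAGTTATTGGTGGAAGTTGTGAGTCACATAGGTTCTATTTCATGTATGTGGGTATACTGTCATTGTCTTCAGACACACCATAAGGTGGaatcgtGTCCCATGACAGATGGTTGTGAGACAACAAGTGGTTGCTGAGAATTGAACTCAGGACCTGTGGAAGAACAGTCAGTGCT
Nearly every base of these stretches was in capitals, 199, 200 and 193 of 200.

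The 2 peaks with the highest ratio of Dzip3 to input DNA are shown next, chosen among the 1350 shared peaks with at least 20 input reads.
Grk5 intron chr19:61000625-61000824: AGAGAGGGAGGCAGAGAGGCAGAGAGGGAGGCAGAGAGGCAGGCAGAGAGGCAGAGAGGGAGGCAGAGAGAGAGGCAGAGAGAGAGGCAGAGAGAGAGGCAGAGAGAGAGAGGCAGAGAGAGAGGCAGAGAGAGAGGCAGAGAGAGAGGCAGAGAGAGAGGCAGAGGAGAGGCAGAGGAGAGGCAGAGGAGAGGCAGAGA
Zfp825 nearest chr13:74666964-74667163: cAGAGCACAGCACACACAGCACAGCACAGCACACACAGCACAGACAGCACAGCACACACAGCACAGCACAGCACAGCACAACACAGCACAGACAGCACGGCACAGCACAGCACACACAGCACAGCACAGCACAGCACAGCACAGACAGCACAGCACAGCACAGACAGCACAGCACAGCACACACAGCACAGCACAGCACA
The Grk5 peak matched itself best at a shift of 24 bases, over 64.4% of its bases, and the chromosome 13 peak at a shift of 5 bases, over 73.4%.

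A unit of the tandem repeat in the longest shared peak is shown because that peak and 1 other held most input reads of all shared peaks.
satellite unit chr9:3019241-3019474: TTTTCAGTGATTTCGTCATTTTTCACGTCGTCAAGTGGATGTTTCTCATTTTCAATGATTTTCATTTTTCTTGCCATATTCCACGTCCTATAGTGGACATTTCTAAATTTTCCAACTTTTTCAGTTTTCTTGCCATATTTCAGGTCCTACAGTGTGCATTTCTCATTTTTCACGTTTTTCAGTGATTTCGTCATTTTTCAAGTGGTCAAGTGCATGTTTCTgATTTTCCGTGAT
The satellite peak matched itself at a shift of 234 bases over 71.2% of its bases, which is the unit length of the mouse major satellite of pericentromeric heterochromatin. This stretch and the following ones were chosen after the values were seen.

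Sequences of arrays with other properties are shown for comparison, namely a chromosome 6 array with high Ring1B reads, the Dux array, the Sfi1 locus and a dispersed repeat with relatives on 16 chromosomes. The Dux array stretch came from a peak over an exon of Gm10807.
chromosome 6 array chr6:47707126-47707325: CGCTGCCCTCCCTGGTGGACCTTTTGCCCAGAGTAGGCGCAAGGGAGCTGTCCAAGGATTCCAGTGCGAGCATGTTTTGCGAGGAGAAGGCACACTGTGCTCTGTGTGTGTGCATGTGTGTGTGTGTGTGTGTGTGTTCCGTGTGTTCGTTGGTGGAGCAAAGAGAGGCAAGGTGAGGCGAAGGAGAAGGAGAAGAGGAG
Dux array chr10:57695233-57695432: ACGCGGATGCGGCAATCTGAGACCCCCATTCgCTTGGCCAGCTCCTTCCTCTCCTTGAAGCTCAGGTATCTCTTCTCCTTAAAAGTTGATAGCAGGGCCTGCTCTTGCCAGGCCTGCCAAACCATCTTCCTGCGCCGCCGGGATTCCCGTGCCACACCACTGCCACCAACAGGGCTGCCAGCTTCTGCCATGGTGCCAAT
Sfi1 intron chr11:3068790-3068989: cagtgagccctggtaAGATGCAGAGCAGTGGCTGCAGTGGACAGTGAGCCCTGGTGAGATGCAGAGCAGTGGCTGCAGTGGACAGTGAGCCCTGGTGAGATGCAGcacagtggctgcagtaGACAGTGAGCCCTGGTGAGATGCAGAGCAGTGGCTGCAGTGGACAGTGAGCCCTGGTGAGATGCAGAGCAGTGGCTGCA
dispersed repeat chr13:26924518-26924717: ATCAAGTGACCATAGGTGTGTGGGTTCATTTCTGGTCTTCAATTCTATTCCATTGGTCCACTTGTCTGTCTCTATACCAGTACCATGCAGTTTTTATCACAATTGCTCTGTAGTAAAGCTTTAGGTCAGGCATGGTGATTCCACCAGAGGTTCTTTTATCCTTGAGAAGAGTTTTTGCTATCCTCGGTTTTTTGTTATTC
The Sfi1 stretch held capitals at 169 of 200 bases, although the whole 859 bp peak had only 27.6% of its words repeated.

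Overlap with the 3 other lists was seldom marginal. At least 50% of the peak was covered by each list in 1256 of the shared peaks (90.9%), and 132 (9.55%) were covered over their whole length by all 3. The lowest of the 3 overlaps was under 5% in 11 peaks. Just inside the rule, a peak of the C130026I21Rik cluster at chr1:85324198-85324495 had 0.673% of its length under an input peak, with 95 Dzip3, 84 Ring1B, 141 ubH2A and 17 input reads. Just outside it, a chromosome 16 peak at chr16:3246472-3246806 lay 1 bp from an input peak, with 112 Dzip3, 119 Ring1B, 134 ubH2A and 39 input reads. Among the other Dzip3 peaks, 1165 had a Ring1B and a ubH2A peak and no input peak, 763 a Ring1B peak alone, 445 a ubH2A peak alone and 2382 none of the 3. An input peak was also found at 223 peaks with ubH2A but not Ring1B, at 35 with Ring1B but not ubH2A and at 87 with neither.

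Listed read totals were at odds with listed heights in 22 shared peaks, in which fewer Dzip3 reads were listed in all than at the highest point of the peak. Of these, 19 formed a cluster of their own at chr9:19056430-19075375 beside Olfr843, an olfactory receptor gene, with heights of 45 to 332 and Dzip3 totals of 0 to 22. The others lay at chr13:111393351-111393565, chr18:14261850-14262126 and chr5:109611327-109611549. Without these 22 peaks, the median ratio of Dzip3 to input DNA was 1.70 in place of 1.68, and the share in clusters of 5 or more was 59.8% in place of 60.2%. Library sizes, as implied by the listed heights and RPM values, ran from 48.3 M reads for input DNA over 51.8 M and 53.3 M for Ring1B and Dzip3 to 67 M for ubH2A.

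Shared peaks were rich in reads of every library, and input DNA was the library that set them apart most. Reads were scaled per kb of peak and per M reads of the library. Dzip3 had a median of 7.66 in the shared peaks (quartiles 6.12 and 11.6), against 6.67 in peaks with Ring1B and ubH2A but no input peak and 5.87 in all 5100 other Dzip3 peaks. Ring1B had a median of 7.69 (5.64 and 12.1), against 7.07 and 3.57.

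For ubH2A the median in shared peaks was 7.78 (5.69 and 11.3), against 5.33 and 2.71. Input DNA had a median of 4.50 (2.91 and 7.79), against 0.750 and 0.495. The middle ranges of input DNA in the shared and the other peaks did not overlap, which the rule fixes in part because it asks for an input peak.

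**Figure D1:**
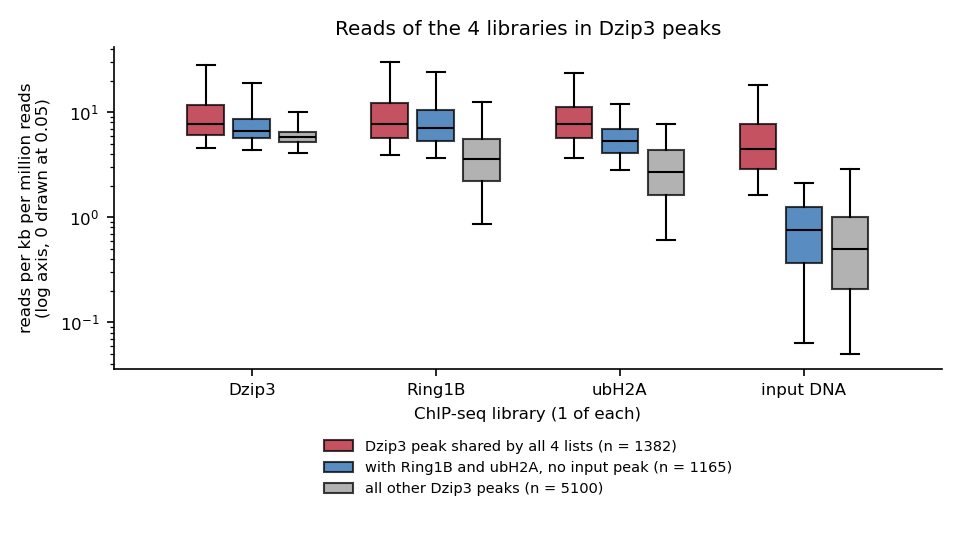
Reads per kb per M reads (log axis) of each library in the 1382 shared peaks, the 1165 Dzip3 peaks with Ring1B and ubH2A but no input peak, and all 5100 other Dzip3 peaks. The 1165 peaks are part of the 5100. Boxes span the quartiles with the median as a line, and whiskers reach the 5th and 95th percentiles. The sets lie close together for Dzip3, with medians of 7.66, 6.67 and 5.87, and far apart for input DNA, with medians of 4.50, 0.750 and 0.495.

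The library-scaled ratio to input DNA, with 1 read added to each count, had a median of 1.68 for Dzip3 (1.12 and 2.78), 1.66 for Ring1B (1.00 and 2.72) and 1.63 for ubH2A (1.06 and 2.60). Dzip3 reached a ratio of at least 2 in 560 of the shared peaks (40.5%), where 83.1% of all Dzip3 peaks did. Ring1B reached it in 532 (38.5%), against 74.0% of all Dzip3 peaks, and ubH2A in 511 (37.0%), against 70.5%. All 3 ratios were at least 2 in 413 peaks (29.9%), against 64.9% of all Dzip3 peaks. All 3 were under 1 in 227 (16.4%), against 4.55% of all Dzip3 peaks. A Dzip3 ratio of at most 0.5 was found in 65 (4.70%), where 1.17% of all Dzip3 peaks had one. These shares rest on the contrast that the rule used, and they are given as a description.

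Reads of the 3 antibodies were near each other in the same peak. The median ratio of Dzip3 to Ring1B was 1.07 (0.904 and 1.24), and that of Dzip3 to ubH2A was 1.06 (0.890 and 1.30). In peaks with Ring1B and ubH2A but no input peak these medians were 1.00 and 1.34, and in all other Dzip3 peaks 1.59 and 2.15. Across 1360 shared peaks with usable totals, log2 reads per base of Dzip3 were correlated with those of Ring1B (Pearson r 0.88, Spearman rho 0.77) and of ubH2A (0.89 and 0.76), and less so with input DNA (0.56 and 0.25). In 1161 peaks with Ring1B and ubH2A but no input peak, Pearson r was 0.61 with Ring1B, 0.56 with ubH2A and -0.05 with input DNA. Spearman rho was 0.54, 0.44 and -0.00. Peaks of that set lack an input peak by choice, which kept input reads to 0 to 3.63 per kb per M reads. The values with input DNA therefore cannot be compared between the sets. The points share their libraries and peak boundaries and are not independent.

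**Figure D2:**
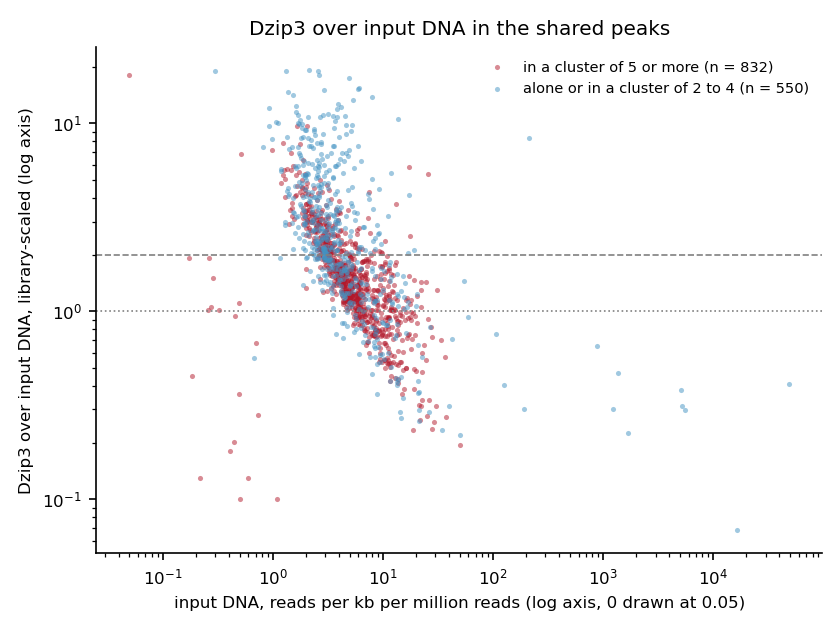
Dzip3 over input DNA (library-scaled, log axis) against reads of input DNA per kb per M reads (log axis) for each shared peak. Colors separate peaks in clusters of 5 or more from those alone or in smaller clusters, and dashed and dotted lines mark ratios of 2 and 1. Input DNA enters both axes, so the downward slope is built in. The points at the far left under a ratio of 2 include peaks with listed totals below their height.

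A large part of all reads fell in few of these peaks. Shared peaks held 16.2% of all input reads, 5.98% of Dzip3 reads, 5.43% of Ring1B reads and 6.17% of ubH2A reads. The 5100 other Dzip3 peaks together held 0.121% of input reads and 0.916% of Dzip3 reads. The 2 members with the most input reads held 13.1% of the input library and 4.15% of the Dzip3 library, and the 10 with the most held 96.1% of the input reads in shared peaks.

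The highest of all was a 1353 bp peak over an exon of Gm10800 at chr2:98506361-98507714, a predicted gene, with 1436600 Dzip3, 1237490 Ring1B, 1777740 ubH2A and 3192760 input reads (totals above 1 M are listed to 6 digits). Its Dzip3 to input ratio was 0.408. The other was the 38.5 kb satellite peak at chr9:2999976-3038506, over predicted genes such as Gm10722 and Gm10718, with 775003 Dzip3, 678913 Ring1B, 1128400 ubH2A and 3111720 input reads and a ratio of 0.226. Another peak over an exon of Gm10801 at chr2:98502362-98503362 had a ratio of 0.380, and an intergenic one at chr9:35112593-35113402 had 0.299.

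Among peaks with at least 20 input reads, the lowest ratio was at chr12:3109700-3110313, with 36777 Dzip3, 39156 Ring1B, 114522 ubH2A and 488850 input reads and a Dzip3 ratio of 0.0682. ubH2A had a higher ratio there, 0.169. A peak in an intron of Cdk5rap2 at chr4:70038993-70039510 had a Dzip3 ratio of 0.218 and only 3.9% of repeated words. The chromosome 18 peak at chr18:3004756-3005052 had 0.194, and the chromosome 9 peak at chr9:19059604-19060292 had 0.130 from 2 Dzip3 and 20 input reads, being 1 of those with totals below the height.

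At the other end, a 375 bp peak in an intron of Grk5, a kinase of G protein-coupled receptors, had 846 Dzip3, 1207 Ring1B, 310 ubH2A and 39 input reads, at chr19:61000538-61000913. Its ratios were 19.2 for Dzip3, 28.2 for Ring1B and 5.6 for ubH2A. The chromosome 13 repeat at chr13:74665848-74668281 had 3276 Dzip3, 3391 Ring1B, 2360 ubH2A and 155 input reads, and ratios of 19, 20.3 and 10.9.

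A peak in an intron of Zc3h7a lay at chr16:11144002-11144504, with 1288, 880, 908 and 64 reads and a ratio of 18. A 6082 bp peak lay over the pseudogene AY036118 at chr17:39979910-39985992, with 28124 Dzip3, 26716 Ring1B, 25515 ubH2A and 1455 input reads, ratios of 17.5, 17.1 and 12.6, and a GC content of 64%.

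Shared peaks were longer than other Dzip3 peaks. Their median length was 389 bp (quartiles 291 and 573), against 308 bp (228 and 377) with Ring1B and ubH2A but no input peak and 240 bp (200 and 319) for all others. A length of 1 kb or more was found in 124 shared peaks (8.97%, interval 7.58 to 10.6) and in 15 of 5100 others (0.294%, 0.178 to 0.485). Height had a median of 1.35 RPM (0.920 and 2.33) against 0.732 in the others. Length and height both entered the peak calls that the rule used.

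The shared peaks were unevenly spread over chromosomes. Chromosome 8 held 256 of them (18.5%), the X chromosome 197 (14.3%) and chromosome 1 157 (11.4%), against 8.69%, 7.0% and 8.76% of all Dzip3 peaks. On the Y chromosome 47 of 58 Dzip3 peaks were shared (81.0%), the highest share of any chromosome, and on chromosome 15 it was 11 of 262 (4.2%). The only Dzip3 peak on the mitochondrial genome was not shared. Within 1 Mb of the first sequenced base next to a centromere lay 4.92% of shared peaks and 1.96% of the others.

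**Figure D3:**
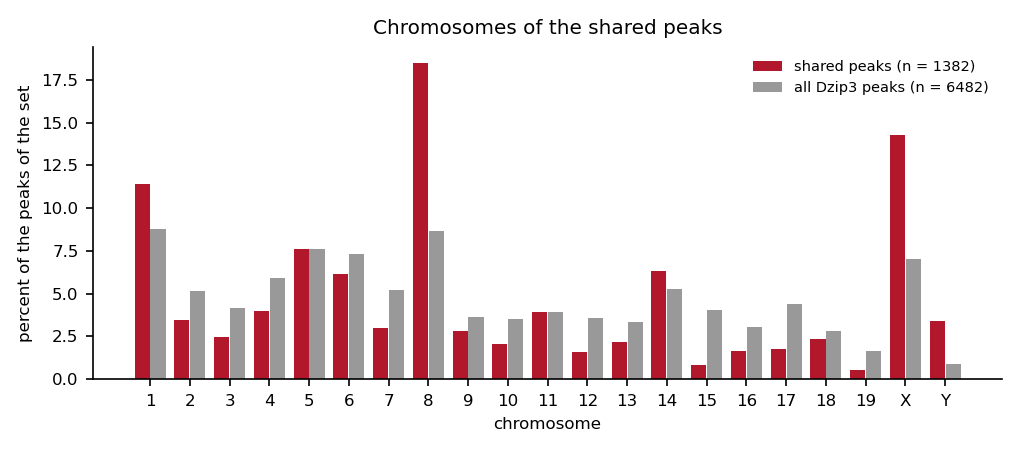
Percent of the shared peaks and of all Dzip3 peaks on each chromosome. Chromosomes 8 and X carry 18.5% and 14.3% of the shared peaks and 8.69% and 7.0% of all Dzip3 peaks, and the 1382 shared peaks are part of the 6482.

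Shared peaks lay in clusters. Peaks no more than 100 kb apart were joined, which gave 31 clusters of 5 or more peaks with 832 members (60.2%), 50 clusters of 2 to 4 with 135, and 415 peaks alone. Of the other Dzip3 peaks 22.1% lay in clusters of 5 or more by the same rule. The median distance to the next shared peak on a chromosome was 3.27 kb, against 212 kb between the others. The 10 largest clusters held 616 peaks (44.6%), and the 10 densest windows of 1 Mb, out of 442 with any shared peak, held 594 (43.0%).

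Peaks alone and in clusters differed in reads and in copies. Peaks alone had a median Dzip3 ratio of 2.58, input reads of 3.63 per kb per M reads and words in 314 copies. Peaks in clusters of 5 or more had a ratio of 1.45, input reads of 5.06 and words in 6.0 copies. A ratio of at least 2 was found in 261 peaks alone (62.9%) and in 239 in such clusters (28.7%).

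The largest cluster, 206 peaks over 353 kb at chr8:19684234-20037334, spanned the predicted genes Gm6483, 4930467E23Rik and Gm15319. It covered 39.2% of its span with shared peaks. Dzip3 reads per kb per M reads ran from 4.01 to 44.9 (median 7.75), Ring1B from 3.86 to 42.0 (7.87), ubH2A from 2.78 to 42.2 (8.51) and input from 1.24 to 29.4 (7.16). All 4 libraries overlapped widely there, with a median Dzip3 ratio of 1.19 and 29 peaks at 2 or more. Its highest peak was at chr8:19923676-19930712, with 16830, 15287, 19928 and 6043 reads of Dzip3, Ring1B, ubH2A and input.

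Chromosome 1 held clusters with close to 2 times as many antibody as input reads. The cluster of 80 peaks at chr1:84959342-85341825 spanned C130026I21Rik and A530032D15Rik and had a median Dzip3 ratio of 1.91. Its highest peak, at chr1:85276853-85277382, had 367, 243, 344 and 143 reads. The cluster of 48 peaks at chr1:87346088-87524045 spanned Sp110 and Sp140, genes of the Sp100 family of nuclear body proteins, with a ratio of 1.90. Its highest peak, at chr1:87487683-87490051 over an exon of Sp110, had 1497, 1210, 1733 and 571 reads.

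On the X chromosome, 72 peaks at chrX:120529193-121315862 lay around Vmn2r121, a vomeronasal receptor gene of pheromone sensing, with ratios of 1.10 for Dzip3, 0.962 for Ring1B and 0.939 for ubH2A. The highest, at chrX:121306931-121309143, had 3406, 2694, 3706 and 2382 reads. A neighbouring cluster of 20 peaks at chrX:120272003-120427275 over 3110007F17Rik had a Dzip3 ratio of 1.25, and its highest peak, at chrX:120325019-120325532, had 447, 351, 457 and 232 reads. The cluster of 58 peaks at chr5:14905500-15220375 spanned Speer4c, Speer4d and Speer4e, of a testis-expressed gene family. Its ratio was 1.67, and its highest peak, at chr5:15196267-15196757, had 281, 232, 248 and 151 reads.

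Sfi1 encodes a centrin-binding protein of centrosomes. Its 37 peaks at chr11:3023908-3100177 covered 91.9% of the span, and only 13.3% of their words were repeated, with a median of 1 copy in mm9. Input reads per kb per M reads were 1.49 to 13.6 (median 11.4) and Dzip3 reads 5.55 to 48.8 (13.1). The ratio had a median of 1.23, and at the highest peak, chr11:3068461-3069320 in an intron of Sfi1, it was 3.72 from 2234 Dzip3, 2095 Ring1B, 2071 ubH2A and 544 input reads.

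In the Y chromosome cluster the median of every antibody was under that of input DNA. Its 37 peaks at chrY:2777522-2902647 had input reads of 7.35 to 37.4 per kb per M reads (median 21.9), against Dzip3 at 5.73 to 40.2 (15.7), Ring1B at 3.63 to 30.9 (12.6) and ubH2A at 4.23 to 32.6 (13.6). The median ratios were 0.793, 0.649 and 0.717, and none of the peaks reached a Dzip3 ratio of 2. The highest, at chrY:2880651-2884310, had 4590, 4169, 5721 and 3945 reads, a Dzip3 ratio of 1.05 and words in 50 copies. No protein-coding gene lay in this cluster.

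Arrays on chromosome 6 had far more Ring1B than Dzip3 reads. In the 37 peaks at chr6:47602410-47728362, Ring1B ran from 10.9 to 44.8 reads per kb per M reads (median 26.4), Dzip3 from 5.16 to 13.7 (6.81), ubH2A from 3.96 to 15.0 (6.86) and input from 0.988 to 7.51 (3.09). Dzip3 was under Ring1B in 37 of 37, with a median ratio of Dzip3 to Ring1B of 0.276. That ratio had a median of 1.07 (quartiles 0.904 and 1.24) in all shared peaks and 1.38 (1.02 and 2.16) in all Dzip3 peaks. The median ratios of the 37 peaks to input DNA were 8.34 for Ring1B, 2.15 for Dzip3 and 2.26 for ubH2A. The highest peak, at chr6:47707015-47707437, had 308 Dzip3, 892 Ring1B, 425 ubH2A and 83 input reads, and all its words were repeated.

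Ring1B was also highest in 19 peaks at chr6:114449330-114564991, with ratios of 5.83 for Ring1B, 3.08 for Dzip3 and 2.72 for ubH2A. Dzip3 was under Ring1B in 19 of 19, with a median ratio of Dzip3 to Ring1B of 0.575, and the words had a median of 97.0 copies. In all shared peaks that ratio had a median of 1.07 (quartiles 0.904 and 1.24), so Dzip3 under Ring1B was common there too. These 19 peaks were named after their values were seen. Neither array held a protein-coding gene.

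Other arrays lay at imprinted, sex-linked and cleavage-stage genes. The 16 peaks at chr7:66929614-67047592 lay along 24 copies of SNORD116, a small nucleolar RNA of the imprinted Prader-Willi region. The snoRNA copies started a median of 2530 bp apart, 15 of the peaks lay within 1 kb of one, and 4 overlapped one. With copies that close, most places in the array lie within 1 kb of one. Whether the peaks follow the copies was not tested. Reads ran from 94 to 607 for Dzip3, 88 to 590 for Ring1B, 104 to 950 for ubH2A and 35 to 197 for input, with median ratios of 2.57, 2.34 and 2.76.

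Mid1, a ubiquitin ligase gene that spans the pseudoautosomal boundary of the mouse X chromosome, lay in a cluster of 21 peaks at chrX:166422783-166650473 with a Dzip3 ratio of 2.30. Its highest peak, at chrX:166649861-166650473, had 4544, 3936, 2402 and 767 reads. The 9 peaks at chr10:57683980-57702536 were named after their values were seen. Their span held Dux, a double homeobox gene of the early cleavage embryo, with 4933403O03Rik, Gm10807 and Gm4981. The highest of the 9 lay over an exon of Gm10807. The 9 peaks had Dzip3 reads of 6.17 to 15.5 per kb per M reads (median 9.36) against input reads of 2.03 to 5.68 (3.83), and a median ratio of 2.42. A ratio of at least 2 was found in 6 of the 9, against 40.5% of shared peaks and 83.1% of all Dzip3 peaks.

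**Figure D4:**
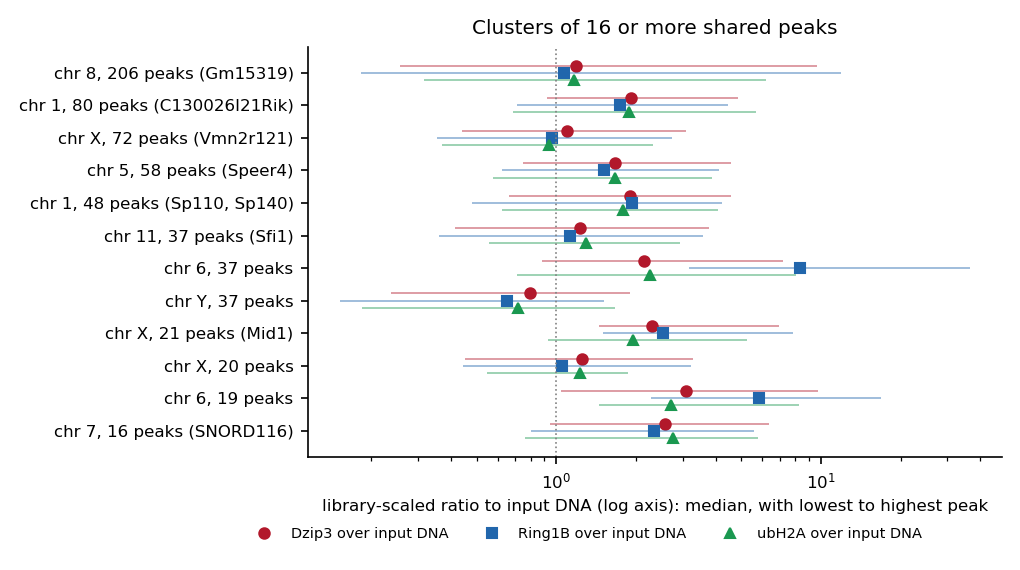
Library-scaled ratio to input DNA (log axis) of Dzip3, Ring1B and ubH2A in the 12 clusters of 16 or more shared peaks with usable totals. Symbols are medians over the peaks of a cluster, and lines run from the lowest to the highest peak. Ring1B lies to the right of the others in both chromosome 6 clusters, at 8.34 and 5.83, and all 3 lie under 1 in the Y chromosome cluster.

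Most shared peaks lay in sequence that the genome holds more than once. A median of 89.3% of their words of 31 bases was repeated (quartiles 63.8 and 98.6), against 68.7% in other Dzip3 peaks and 89.9% in those with Ring1B and ubH2A but no input peak. Every word was repeated in 315 (22.8%), near the 20.3% of other Dzip3 peaks and under the 28.2% of those with Ring1B and ubH2A but no input peak. Under 10% of words were repeated in 46 shared peaks (3.33%, interval 2.50 to 4.41), where 1366 of the others (26.8%, 25.6 to 28.0) had so few. Of those with Ring1B and ubH2A but no input peak, 4.64% had so few. The rule did not use sequence. The methods describe the depth in uniquely mapped reads, while the library sizes implied by the lists were larger than that depth, and whether reads with several matches were counted was not tested.

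Low copy numbers were the most frequent among them. The median word of a peak occurred in 2 to 9 copies in 558 shared peaks (40.4%), in 10 to 99 in 320 (23.2%), in 100 or more in 251 (18.2%) and in 1 copy in 253 (18.3%). The Dzip3 ratio was 1.64, 1.57, 1.54 and 2.58 at 1, 2 to 9, 10 to 99, and 100 or more copies. Input reads were 4.72, 4.81, 4.34 and 3.90 per kb per M reads in the same order. Among the other Dzip3 peaks, 2164 (42.4%) had a median of 1 copy, with a ratio of 12.1 and input reads of 0.412. The contrast in ratio and input reads between the sets is fixed in part by the rule, which asks for an input peak.

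**Figure D5:**
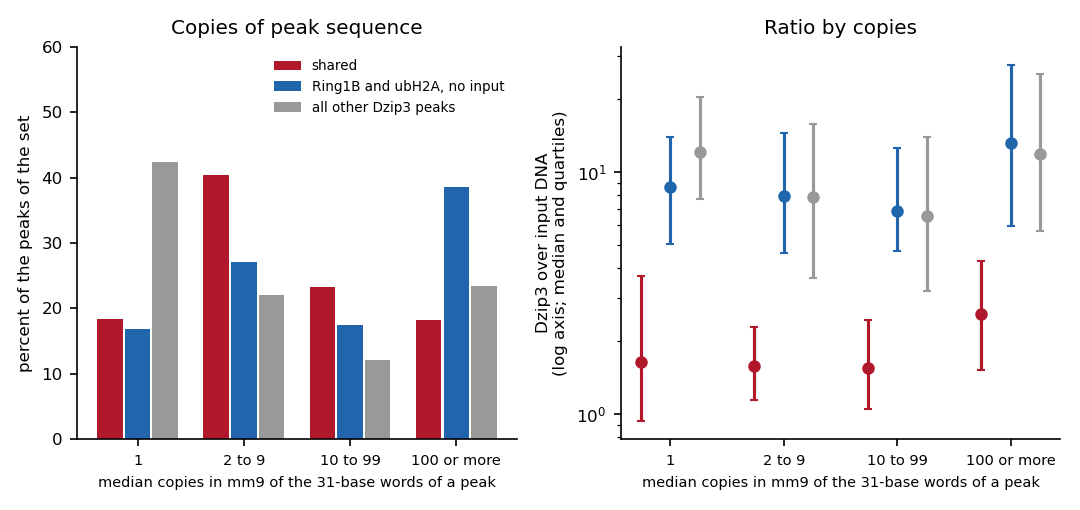
Percent of the peaks of each set (left) and Dzip3 over input DNA on a log axis (right, medians with quartiles), by the median number of copies in mm9 of the words of 31 bases of a peak. Of the shared peaks 40.4% lie at 2 to 9 copies, and 42.4% of the other Dzip3 peaks at 1 copy. At every copy number the median ratio of the shared peaks, 1.54 to 2.58, lies under those of the other sets. The rule fixes this in part because it asks for an input peak.

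Related sequences were found near and far. Of the shared peaks, 1133 (82.0%) held at least 1 word in common with another. Joining peaks that had at least 50% of the words of the shorter in common gave 168 groups of 2 or more with 600 peaks (43.4%). Of these groups 137 stayed on 1 chromosome with 388 peaks, and 31 spread over several with 212. The largest had 39 peaks on 15 chromosomes, words in 10401 copies and a Dzip3 ratio of 2.82 (0.900 to 19). The next had 33 peaks on 16 chromosomes and a ratio of 3.04 (0.425 to 10.8).

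Tandem repeats of short units were fewer than in other Dzip3 peaks. Among the 1020 shared peaks of 300 bp or more, the central 300 bases of 70 (6.86%, interval 5.47 to 8.58) matched themselves at a shift of up to 150 bases over at least 70% of positions. Of other Dzip3 peaks as long, 460 of 1573 (29.2%, 27.0 to 31.5) did so. The 70 had a Dzip3 ratio of 4.43, against 1.64 in the rest of the 1020. The same direction was seen in the other Dzip3 peaks, at 14.2 in the 460 against 8.79 in the rest. Among the 70 shared peaks, the shift was under 10 bases in 30 and 10 to 59 bases in 36.

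GC content had a median of 45.1% (40.9 and 48.7) against 51.4% (46.0 and 56.6) in the other Dzip3 peaks. Simple motifs were searched on both strands of the central 300 bases. (CA)6, or CA 6 times in a row, was found in 73 shared peaks (5.28%), against 12% of other Dzip3 peaks, 5.75% of those with Ring1B and ubH2A but no input peak and 4.43% of consecutive windows of 300 bases in mm9. (GA)6 was found in 2.10%, against 1.08% and 1.98%, and (T)12 in 1.74%, against 0.235% and 3.53%. CGCG was found in 4.2%, against 8.35% and 3.04%. A match is a description of the letters only.

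Most shared peaks lay outside protein-coding genes, as did most of all Dzip3 peaks. Of the shared peaks, 804 (58.2%) were intergenic, against 53.5% of all Dzip3 peaks. In the peaks with Ring1B and ubH2A but no input peak it was 61.7%. Of the shared peaks, 290 (21%) lay in introns of protein-coding genes and 105 (7.60%) over exons, against 31.8% and 8.90% of all Dzip3 peaks. Other annotated genes held 183 (13.2%), against 5.82%. Within 4 kb of a protein-coding transcription start site (TSS) lay 194 (14%, interval 12.3 to 16), against 13% (12.1 to 14) of other Dzip3 peaks and 8.58% (7.11 to 10.3) of those with Ring1B and ubH2A but no input peak. On chromosomes with complete lists it was 8.47% of the shared peaks. A TSS within 100 kb of a shared peak was found for 899 of 22380 protein-coding genes (4.02%), of which 437 had no other Dzip3 peak that near. Genes with a Gm or Rik symbol, most of them predicted, made up 29.0% of these 899 and 15.5% of the annotation.

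The counts of genes below stand against that 4.02% of all protein-coding genes. Genes that lie near each other can be counted with the same peaks, so the genes of a family are not independent. All 3 genes of the Sp100 family had shared peaks within 100 kb, with 44 for Sp110, 41 for Sp140 and 37 for Sp100. Of 9 Speer genes 6 had any, from 35 for Speer4d, 28 for Speer4e, 25 for Speer4c and 10 for Speer4a to 1 each for Speer2 and Speer4f. Of 331 vomeronasal receptor genes 23 did (6.95%), with 38 for Vmn2r121, 2 each for Vmn1r2, Vmn1r91 and Vmn1r93, and 1 for Vmn1r29 and Vmn1r30. Of 1113 olfactory receptor genes 27 did (2.43%), and the 19 peaks each near Olfr843, Olfr844 and Olfr845 and the 9 near Olfr846 were those with totals below the height. Of 53 defensin genes, which encode antimicrobial peptides, 7 did (13.2%), with 2 peaks for Defa21, Defa23 and Defa25 and 1 for Defb11, Defb13 and Defb15. The nearest peak was the same for all the Defa genes named, and the same for all the Defb genes named.

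Nearest to Vmn1r2 was a peak at 87.5 kb with 1665 Dzip3, 1922 Ring1B, 2530 ubH2A and 237 input reads and a Dzip3 ratio of 6.35. Near Defa21 it had 132, 120, 174 and 50 reads and a ratio of 2.36. Of 371 zinc finger genes of the Zfp series 15 did (4.04%, close to the 4.02% of all genes), with the most peaks at Zfp398 and Zfp786 with 19 each beside the chromosome 6 array and Zfp600 with 5. Rhox1, a homeobox gene of reproductive tissue, was the only 1 of 30 Rhox genes, with 1 peak at a ratio of 1.14.

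Of 26 Polycomb genes, 2 had a shared peak within 100 kb. Ezh2, the H3K27 methyltransferase of Polycomb repressive complex 2, had 18 shared peaks within 100 kb of its TSS, all of the Ring1B-rich chromosome 6 array, and the nearest, at 57.1 kb, had 83 Dzip3, 284 Ring1B, 99 ubH2A and 21 input reads. Jarid2, a partner of that complex, had 1 at 28.7 kb with 82, 166, 209 and 21 reads. In lists this short, a share near that of all genes comes to few genes or none. None was found within 100 kb of the 40 Hox genes, of which 17 had some Dzip3 peak that near, nor of 13 pluripotency factors (6 with some Dzip3 peak), 67 histone genes (30) or 9 H2A ubiquitin ligases and deubiquitylases (1). None was found for 9 of the genes that the study assayed singly (3), a partial list of Neurod1, Neurog1, Rhox6, Stra8, T, Acta1, Eomes, Bspry and Shank3. There was none for 15 Slx and Xlr genes (3), 14 Pramel genes (3), 6 Zscan4 genes (1) or 11 Skint genes (0).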

How the data were processed

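ChIP-seq was measured in 4 libraries of E14 mES cells, 1 for each target and no replicates. The authors aligned reads to mm9 with the Illumina Analysis Pipeline allowing 1 mismatch and used the Partek Genomics Suite to call the peaks of every library by itself at FDR 0.1, with versions not given in the sources used here. Fragmentation is given as micrococcal nuclease in the methods and as sonication in the labels. The deposited lists hold raw counts of extended reads at the highest point of a peak, and for each library the count of all reads inside it. The authors' height in RPM was deposited too, as was the percent of each peak covered by peaks of each library. Columns of the authors' own comparisons, a p-value, a fold against input DNA and a rank test, were not used. A malformed row was left out of the ubH2A and of the input list, which are incomplete on chromosomes 1, 10 and 11 and, for input, 12. Peaks of these lists were not counted inside clusters on those chromosomes. Shared peaks there were analysed, because overlaps and reads were read from the complete Dzip3 list.

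Members, gene lists and named items were chosen with earlier results of these data known. Library sizes (48.3 to 67 M reads) are the ratio of height to RPM. They exceed the stated depth of about 30 M uniquely mapped reads. Ratios are (reads + 1) per M reads over the same in input DNA. A listed start was taken as the first base of a peak and the base before the listed stop as the last. Genes are GENCODE vM1 on the same build, with a TSS within 100 kb, and words of 31 bases were counted on both strands of mm9. Named were the 5 shared peaks with the highest Dzip3 RPM, the 5 with the highest and the 5 with the lowest Dzip3 ratio among those with at least 20 input reads, the highest peak of the 10 largest clusters, the genes they overlap or lie nearest to, and up to 6 genes of each fixed list. Some items that this rule names, and 1 motif, are not reported here. Intervals are 95% Wilson intervals, which cover counting error only. No p-values were computed, since peaks are not replicates. The code was tested on simulated data, where 200 of 200 planted repeats, 30 of 30 clusters and 500 of 500 overlaps were found. Alternatives were stricter overlap, other peak subsets, library sizes, pseudocounts, thresholds and word lengths. The work was done in Python 3.11.15 with statsmodels 0.14.6 for intervals, numba 0.67.0 and numpy 2.4.6 for counting words, pandas 2.3.3 for tables and matplotlib 3.10.9 for plots.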

Additional observations from a re-analysis of the deposited data

How the results depend on the processing

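Of 147 values under an alternative, 75 stayed within the 95% interval of the reported value, or within 1.5 times for counts, and 72 moved beyond it. The cause of these changes was not tested. Without the 10 densest windows, 788 peaks were left, with a median length of 354 bp, 7.84 Dzip3 and 3.64 input reads per kb per M reads, ratios of 2.10 (Dzip3), 2.01 (Ring1B) and 1.98 (ubH2A), 53.3% at a Dzip3 ratio of 2 or more, 9.64% within 4 kb of a TSS and 86.2% repeated words. The stronger 50% by RPM gave 691 peaks of 500 bp, 11.6 (Dzip3), 11.1 (Ring1B), 10.7 (ubH2A) and 5.40 (input) reads, ratios of 1.97, 1.81 and 1.78, 49.5% at 2 or more, 552 genes, 83.5% repeated words and 44.5% GC. Merging peaks within 1 kb gave 370 bp, 3.85 input reads, ratios of 2.01, 1.87 and 1.86, 50.3% at 2 or more, 9.68% near a TSS and 45.5% GC. With all libraries taken as equally deep, reads were 13.6, 13.3, 17.4 and 7.25, ratios 1.86, 1.77 and 2.26, and 46.1% reached 2. With reads in the shared peaks taken out of the library sizes, chosen after seeing the data, reads were 8.15, 8.14, 8.29 and 5.37, ratios 1.5, 1.47 and 1.45, and 33.6% reached 2. At least 50% overlap with each list gave 8.02 ubH2A and 4.77 input reads, a Dzip3 ratio of 1.60 and 36.7% at 2 or more. Chromosomes with complete lists gave 4.73 input reads, ratios of 1.62 (Dzip3) and 1.56 (ubH2A) and 8.47% near a TSS. A threshold of 1.5 gave 56.9% and 1 of 4 gave 14.3%. Gaps of 10 kb and 1 Mb put 52.3% and 66.6% in clusters, and windows of 100 kb held 26.8%. A TSS lay within 1 kb of 4.99% and within 10 kb of 25%. Genes numbered 140 within 10 kb, 81 within 4 kb and 349 as the nearest gene only. Words of 25 and 50 bases gave 92.2% and 80.1%, and the central 300 bases gave 45.7% GC. Over whole peaks, motifs were found in 8.32% for (CA)6, 3.18% for (GA)6, 3.84% for (T)12 and 6.22% for CGCG. Overlaps recomputed from positions gave the same call for all 5200 Dzip3 peaks on chromosomes with complete lists. No alternative turned a median ratio from above 1 to below it.

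No paired analysis was possible because there was 1 library for each target. Depth of 48.3 to 67 M reads gave a median of 81.0 input reads in a shared peak, and with no replicates the spread between cultures is unknown. Copies in mm9 are those of the assembly, not of the E14 genome.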

Other observations

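Smaller arrays of shared peaks lay over predicted genes and near a few known ones. On chromosome 14, clusters of 14, 12 and 12 peaks spanned Gm genes such as Gm5796, Gm8237 and Gm10406, with median Dzip3 ratios of 1.45, 1.44 and 1.39 and words in 16.5, 14.5 and 20.5 copies. On chromosome 4, 14 peaks at chr4:146772853-146894595 and 7 at chr4:145702735-145754048 had ratios of 1.46 and 2.07, and in both the median word occurred in 1 copy. At chr8:71942618-72071713, 11 peaks had a ratio of 2.53.

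The 7 peaks at chr2:27350882-27357834 had a span that overlapped Brd3, a bromodomain protein gene. They covered 72.7% of the span with a ratio of 1.33 and input reads of 7.13 per kb per M reads. The 6 peaks at chr1:173445275-173499649 had a span that overlapped Itln1, an intestinal lectin gene, and Cd244, a receptor gene of natural killer cells. These 6 had the highest median Dzip3 ratio of the 31 clusters, 3.20, and 11.2% of repeated words. At chr8:56199179-56209077, 9 peaks had more Ring1B than Dzip3 reads in 9 of 9, with ratios to input DNA of 3.01 and 1.76. Their median ratio of Dzip3 to Ring1B was 0.835, against 1.07 (quartiles 0.904 and 1.24) in all shared peaks. These arrays were named after their values were seen.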
